A study of Mus musculus with 5 samples.

Results

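SH2 and SH3 adaptor genes were taken as the mouse protein-coding genes whose RefSeq symbol starts with Sh2 or Sh3. There were 38 such genes among 21521 protein-coding genes of chromosomes 1 to 19 and X, and they lay on 19 of these 20 chromosomes. The symbol alone chose them, but the family was proposed with earlier counts of these sites known, so the counts are a description and no p-value is given. Positions of EBF1 sites came from 1 library, a chromatin immunoprecipitation with an antibody against EBF1. The cells were pro-B cells derived from Ebf1-/- fetal liver and transduced with wild-type EBF1, so the factor was supplied from outside in every cell examined. The series holds 5 libraries, 1 per group. The library with YmA, a form of EBF1, the BRG1 library with YmA and both inputs were not analysed here. The deposited list gives 7494 sites of 300 bp, each with a class named YmA-dep, YmA-ind or CTD-ind, and no height or score. Neither depth nor site strength is therefore known, and the lack of a listed site does not show that EBF1 was absent. The sources used here do not say how the classes were made. The list holds no expression values, so the cell type could not be checked against marker genes.

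SH2 domains bind phosphorylated tyrosines and SH3 domains bind proline-rich stretches, and adaptor proteins use them to join activated receptors to kinases, ubiquitin ligases and the membrane machinery. In B cells, signals from the pre-B-cell receptor and from cytokine receptors pass through such adaptors. EBF1 is a transcription factor needed for the B lineage, and its known binding sequence is a palindrome. The symbols used here join proteins of different build: some are named for carrying the domain, whereas others (Sh3bp1, Sh3bp2, Sh3bp5, Sh3bgr) are named for binding to one or for another feature.

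The promoter sequences show where sites and the EBF palindrome coincided at these genes and where they did not. RefSeq promoter windows (GRCm38.p6, 250 bases before a listed start to 50 after) were matched for 28 of the 38 genes, with 39 windows. By at least 1 base, an EBF1 site overlapped 2 of these windows, at Sh2b1 and Sh2d6, against 2.75% of 21045 windows of all protein-coding genes. Each window was searched for the full palindrome TCCCNNGGGA and for its core CCCNNGGG. Both read the same on either strand, and every full match holds a core match. Of the 39 windows, 1 held the full form and 5 held the core, against 0.965% and 15.8% of all windows of protein-coding genes. Among all such windows that overlapped a site, 10.7% held the full form and 46.6% the core, whereas 0.689% and 14.9% of windows without a site did. The Sh2d6 window is shown because it was the only one of the 39 with both a site and a core match. Its site (YmA-ind, chr6:72520026-72520325) covered the first 261 of its 300 bases, and capitals mark the core.
Sh2d6, chr6:72519987-72520286, minus strand: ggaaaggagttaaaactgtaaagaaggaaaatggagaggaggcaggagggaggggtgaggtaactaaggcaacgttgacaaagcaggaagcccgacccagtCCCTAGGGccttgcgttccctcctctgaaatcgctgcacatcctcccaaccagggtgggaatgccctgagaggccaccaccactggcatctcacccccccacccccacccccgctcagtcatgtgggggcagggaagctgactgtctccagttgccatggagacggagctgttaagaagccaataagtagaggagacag
The middle of this core lay 6 bp from the centre of the site. The listed start of Sh2d6 lies inside the gene, so this window is not at the upstream end of the gene. The site was centred 68.2% of the way from the upstream to the downstream end.

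At Sh2b1 the table lists starts at positions 126473094 and 126475130, and the gene is on the minus strand of chromosome 7. The window of the start farther upstream is shown because a YmA-ind site (chr7:126475310-126475609) reached into it, and capitals mark the 71 bases under the site. No core match was found in this window.
Sh2b1, chr7:126475081-126475380, minus strand: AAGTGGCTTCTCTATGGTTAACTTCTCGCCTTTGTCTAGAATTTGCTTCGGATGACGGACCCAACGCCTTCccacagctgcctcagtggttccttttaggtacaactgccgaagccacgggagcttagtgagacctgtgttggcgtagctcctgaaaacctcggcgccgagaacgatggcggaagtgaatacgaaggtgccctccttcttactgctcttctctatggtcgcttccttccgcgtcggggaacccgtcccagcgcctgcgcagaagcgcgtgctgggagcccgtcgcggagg
The window of the other Sh2b1 start held a core but no site, although sites lay on either side of it. The next lines show this stretch beside the windows of Sh2d3c, Sh3pxd2b and Sh3rf3, which held matches and no site, with the core or full form in capitals.
Sh2b1, chr7:126473226-126473285, minus strand: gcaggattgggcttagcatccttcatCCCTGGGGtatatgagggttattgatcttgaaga
Sh2d3c, chr2:32727640-32727699, plus strand: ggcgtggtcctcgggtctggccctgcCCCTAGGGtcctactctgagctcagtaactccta
Sh3pxd2b, chr11:32347691-32347750, plus strand: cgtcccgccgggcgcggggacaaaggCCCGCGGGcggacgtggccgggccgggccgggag
Sh3rf3, chr10:58813184-58813245, plus strand: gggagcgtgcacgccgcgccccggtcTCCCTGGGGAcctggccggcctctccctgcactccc
The Sh3rf3 window also held another core, CCCGAGGG (58813130 to 58813137), not shown in its stretch. The Sh3rf3 stretch is the full form, and the nearest site to that start lay 264 kb away. The Sh2d3c core has the same 8 letters as that of Sh2d6, but the nearest site to its start was centred 6.78 kb upstream. That listed start lies inside the gene, and the site was centred 124.5 bp upstream of the gene itself. A match of letters is a description of the window, not a binding site.

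Which of these genes carried EBF1 sites was examined next. Each site went to the protein-coding gene that held its centre (the shortest where several did), and a site between genes went to the nearest one within 100 kb. Of the 38 genes, 19 had at least 1 site (50.0%, 95% exact binomial interval 33.4 to 66.6%), against 19.6% of all protein-coding genes. In all, 35 sites were assigned to them. The median over the 38 genes was 0.5 sites, against 0 over all protein-coding genes. Among genes with a site the median was 1 site in both sets, and the means were 1.84 and 1.68 sites. Intervals cover counting error only, and genes are not replicates.

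**Figure D1:**
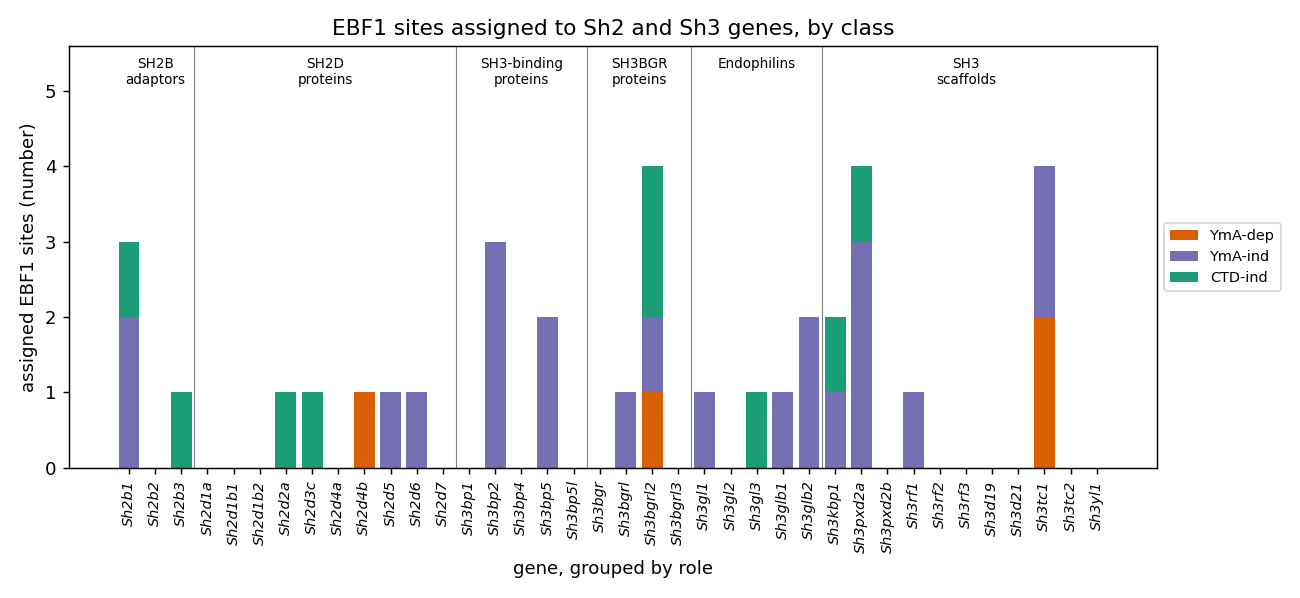
Number of EBF1 sites assigned to each of the 38 genes (y axis), grouped by role and stacked by class. Sh3bgrl2, Sh3pxd2a and Sh3tc1 had 4 sites each, Sh2b1 and Sh3bp2 had 3, and 19 genes had 0.

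Longer protein-coding genes more often had a site, and the Sh2 and Sh3 genes were longer than most, with a median span of 37.3 kb against 17.4 kb for all protein-coding genes. Genes of like span were therefore set beside them in 4 bins. Under 10 kb, 2 of 4 had a site, against 9.70% of all protein-coding genes of that span. From 10 to 30 kb, 5 of 13 had one (38.5%, interval 13.9 to 68.4%), against 20.0%. From 30 to 100 kb, 8 of 13 had one (61.5%, 31.6 to 86.1%), against 26.7%. At 100 kb or more, 4 of 8 had one (50.0%, 15.7 to 84.3%), against 35.1%. At the shares of their bins, 9.25 of the 38 genes would carry a site, where 19 did. The count was above the like-span share in each bin, but apart from the 30 to 100 kb bin the interval of the family included that share. Over all 38 genes the like-span share was 24.4%, outside the interval of 33.4 to 66.6%. The family was proposed with earlier counts known, so this is a description and not a test.

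**Figure D2:**
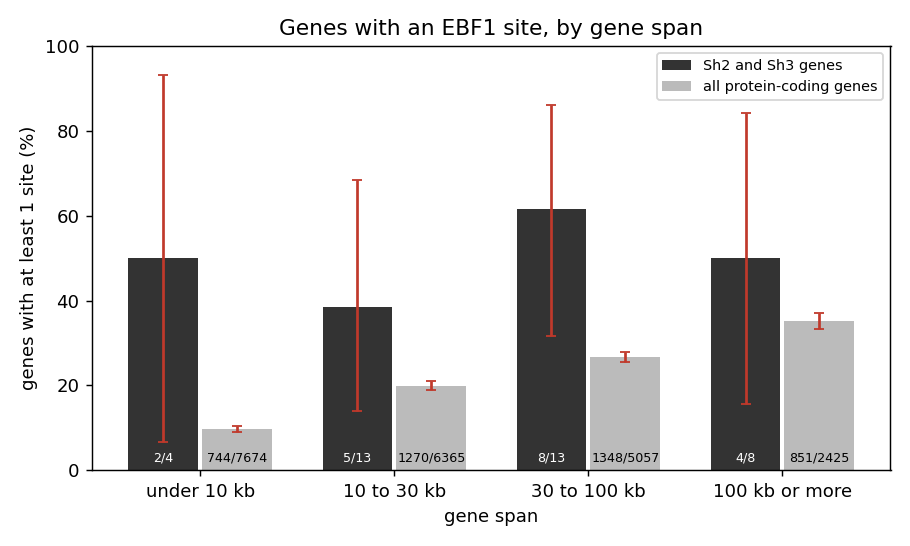
Share of genes with at least 1 EBF1 site (y axis, %) by gene span (x axis), for the Sh2 and Sh3 genes (dark) and all protein-coding genes (light). Bars carry counts and red lines are exact 95% binomial intervals. The dark bar is higher in each bin, from 38.5 to 61.5%, with wide intervals.

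The SH2B family comprises adaptors of JAK2 and of receptor tyrosine kinases, and 2 of its 3 genes had sites, where the shares of their span bins give 0.496. Sh2b1, which takes part in insulin and leptin signalling, had 3 sites, all inside its 9.66 kb span. From lower to higher coordinate the sites were CTD-ind (126472538 to 126472837), YmA-ind (126473474 to 126473773) and YmA-ind (126475310 to 126475609). Relative to the nearest listed start, they were centred 406.5 bp downstream, 529.5 bp upstream and 329.5 bp upstream. Among 7674 protein-coding genes with a span under 10 kb, Sh2b1 was the only one with at least 3 assigned sites inside the gene (0.0130%), while 0.704% had at least 3 sites inside or outside. Its span lies close to the upper edge of this bin, and shorter genes have less room for sites inside. No share at genes nearer its span is given here. Sh2b1 was named for its sites inside after they were seen.

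Sh2b3 encodes Lnk, an inhibitor of cytokine receptor signalling that limits the number of B-cell precursors in mice. It had 1 CTD-ind site on chromosome 5 (121833846 to 121834145), inside the gene and 2.11 kb downstream of the listed start. Sh2b2, the insulin receptor adaptor APS, had no assigned site, but 3 CTD-ind sites lay within 10 kb of it, at 1.21, 3.28 and 8.63 kb. All 3 were assigned to its neighbour Cux1. For Sh2b2 the absence of a site therefore rests on the rule that a site belongs to a single gene.

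The SH2D genes had sites at 5 of 10, with 1 site each, where their span bins give 1.99. The 3 SAP-family genes had none: Sh2d1a, whose product joins SLAM receptors to the kinase Fyn in T and NK cells, and its relatives Sh2d1b1 and Sh2d1b2. Their nearest sites lay 352, 304 and 260 kb away. Sh2d2a, which encodes the T-cell adaptor TSAd, had a CTD-ind site on chromosome 3 (87846866 to 87847165), inside the gene and 260.5 bp from its lower end. Sh2d3c, an adaptor that binds Cas proteins, had a CTD-ind site on chromosome 2 (32720763 to 32721062) centred 124.5 bp upstream of the gene. Its listed start lies farther in, 6.78 kb downstream of the site. This site belonged to a run of 3 whose others were assigned to Cdk9 and lay 8.23 and 8.87 kb from Sh2d3c. Sh2d5 had a YmA-ind site 2.19 kb from its lower end on chromosome 4 (138252452 to 138252751). Sh2d6 had the YmA-ind site described above with its sequence, at a listed start inside the gene and 6.53 kb from its lower end. Sh2d4b had a YmA-dep site on chromosome 14 (40867505 to 40867804), 25.7 kb downstream of its start. Sh2d4a and Sh2d7 had none, with their nearest sites, assigned to Psd3 and Cib2, at 69.4 and 15.3 kb.

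Of 5 genes named for binding SH3 domains, 2 had a site, where the shares of their span bins give 1.20. Sh3bp2, which encodes an adaptor of Syk-family kinases, Vav proteins and Abl, had 3 sites on chromosome 5, all YmA-ind. The sites at 34530848 to 34531147 and 34539109 to 34539408 lay inside the gene, 8.26 kb apart and upstream of both listed starts. The site at 34567975 to 34568274 lay 4.49 kb beyond the gene, and Add1 began 5.54 kb from it. At least 3 sites were found at 4.45% of protein-coding genes of 30 to 100 kb. Sh3bp5, whose product Sab binds the kinase Btk, had 2 YmA-ind sites inside the gene on chromosome 14, at 31384626 to 31384925 and 31410388 to 31410687. Sh3bp1, Sh3bp4 and Sh3bp5l had none. The nearest site to Sh3bp1 was 11.8 kb away and assigned to Lgals1, and those to Sh3bp4 and Sh3bp5l were 936 and 264 kb away.

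The SH3BGR genes encode small thioredoxin-like proteins, and 2 of 4 had sites, where their span bins give 0.830. Sh3bgrl had a YmA-ind site inside the gene on the X chromosome (109107651 to 109107950), 12.4 kb downstream of its start. Sh3bgrl2 had 4 sites, all beyond the gene on chromosome 9 at 67.0, 82.2, 83.3 and 87.2 kb. It was the only gene of the family with all 3 classes: CTD-ind at the nearest pair, then YmA-dep and YmA-ind. The second of these sites lay 808.5 bp from the start of a noncoding gene, Gm36120, and the next coding gene, Elovl4, was farther away than Sh3bgrl2 from every one of them. The count of Sh3bgrl2 therefore rests on the 100 kb limit, and with a limit of 20 kb it had 0. Sh3bgr and Sh3bgrl3 had no site, with the nearest at 385 and 26.9 kb.

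Endophilins bend membranes with a BAR domain and recruit endocytic proteins with an SH3 domain. Of 5 genes 4 had sites, where their span bins give 1.37, but not all sites were close to the gene. Sh3glb2 had 2 YmA-ind sites inside its 14.6 kb span on chromosome 2, at 30345994 to 30346293 and 30349228 to 30349527, and 5.25% of protein-coding genes of 10 to 30 kb had at least 2 sites. Sh3gl1 had a YmA-ind site inside the gene on chromosome 17 (56021132 to 56021431). Sh3glb1, which encodes Bif-1, a protein of autophagy and apoptosis, had a YmA-ind site 3.84 kb beyond its 3′ end on chromosome 3 (144679680 to 144679979). The CTD-ind site of Sh3gl3 lay 64.4 kb before the gene on chromosome 7 (82109215 to 82109514), and a nearer site, at 34.3 kb on the other side, was assigned to Adamtsl3. Sh3gl2 had none, with the nearest site at 567 kb.

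Of the 11 remaining Sh3 genes, shown together as SH3 scaffolds, 4 had sites, close to the 3.37 that the shares of their span bins give. All 11 of their sites lay inside the gene, where 8.05 would at the shares of sites of genes of like span. Sh3kbp1 encodes CIN85, which binds the ubiquitin ligase Cbl and, in B cells, the adaptor BLNK. It had a CTD-ind site (159650155 to 159650454) and a YmA-ind site (159673574 to 159673873) on the X chromosome, 23.02 and 46.44 kb downstream of a listed start and in the first 13.4% of a 349 kb gene. Of protein-coding genes of 100 kb or more, 18.1% had at least 2 sites, whereas 5.71% of protein-coding genes of X, of any span, had any. Of 3 members on X, 2 had a site, Sh3kbp1 and the 67.1 kb gene Sh3bgrl. No share at X genes of like span is given here.

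Sh3pxd2a encodes Tks5, a scaffold of podosomes. Its 4 sites lay inside the gene on chromosome 19, with YmA-ind sites 56.1, 79.2 and 95.1 kb from the lower end and a CTD-ind site (47447004 to 47447303) 17.5 kb from the upper end. At least 4 sites inside were found at 4.16% of protein-coding genes of 100 kb or more. Sh3tc1, a relative of the peripheral nerve gene Sh3tc2, had 4 sites inside its 42.8 kb span on chromosome 5. Its YmA-dep sites lay near opposite ends, 1.38 kb from the lower end (35698415 to 35698714) and 687.5 bp from the upper end (35739150 to 35739449), where its start is listed. Its YmA-ind sites lay between them, at 3.61 and 13.4 kb from the lower end. Of protein-coding genes of 30 to 100 kb, 2.27% had at least 4 sites and 0.969% had at least 4 inside. The number 4 was taken from the count of Sh3tc1 itself, and Sh3bgrl2, of the same span bin, also had 4 sites, all outside the gene. Sh3tc1 held 2 of the 4 YmA-dep sites of the family. Sh3rf1, which encodes POSH, a ubiquitin ligase and scaffold of JNK signalling, had a YmA-ind site (61224407 to 61224706) 473.5 bp inside the lower end on chromosome 8.

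No site was assigned to Sh3pxd2b, Sh3rf2, Sh3rf3, Sh3d19, Sh3d21, Sh3tc2 or Sh3yl1. Of the 19 genes of the family without a site, 11 had none of any owner within 100 kb, and 8 had sites within 100 kb that were assigned to other genes. At the 100 kb limit, the farthest site counted was the one of Sh3bgrl2 at 87.2 kb. Just beyond it were Sh3tc2 and Sh3rf2, with their nearest sites at 116 and 129 kb, both assigned to other genes.

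**Figure D3:**
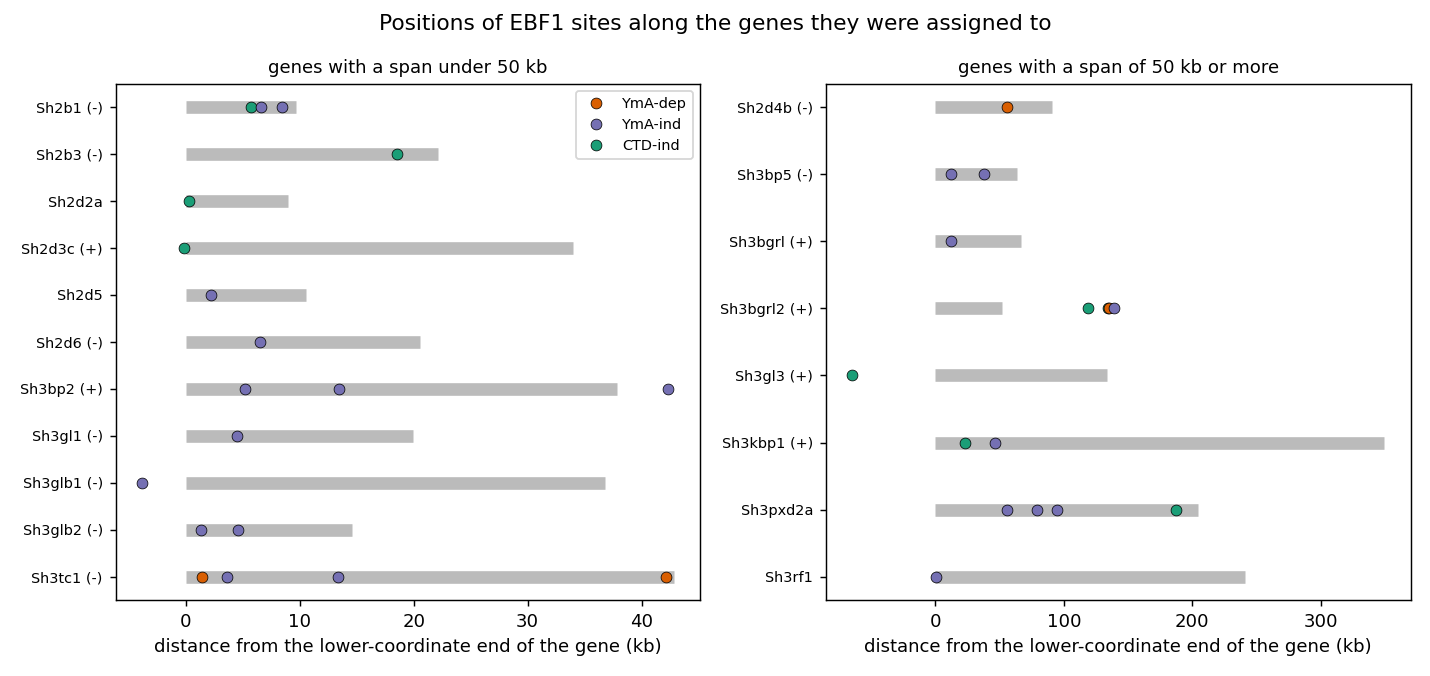
Positions of the 35 sites along the 19 genes that carried them. Grey bars are gene spans, the x axis is the distance from the lower-coordinate end in kb, points are site centres coloured by class, and the strand is in parentheses where listed. The 3 sites of Sh2b1 sit together within its 9.66 kb, and the 4 of Sh3bgrl2 lie 67.0 kb or more beyond the gene.

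YmA-ind was the most common class at these genes, as it was over all assigned sites. YmA-ind made up 22 of 35 sites (62.9%, interval 44.9 to 78.5%), against 53.6% of 7082 assigned sites. CTD-ind made up 9 (25.7%, 12.49 to 43.3%), against 35.1%, and YmA-dep made up 4 (11.4%, 3.20 to 26.7%), against 11.2%. Each interval included the share of all assigned sites. By gene, 14 of the 38 had a YmA-ind site (36.8%, 21.8 to 54.0%), against 12.2% of all protein-coding genes. Their span bins give 5.99 genes (15.8%). CTD-ind sites were found at 8 (21.1%, 9.55 to 37.3%), against 9.32% of all protein-coding genes and 4.32 genes (11.4%) at like span. YmA-dep sites were found at 3, Sh2d4b, Sh3bgrl2 and Sh3tc1 (7.89%, 1.66 to 21.4%), against 3.26% and 1.72 genes (4.51%). Each of the 3 counts was above its like-span value. The intervals for CTD-ind and YmA-dep, with fewer genes, included the like-span share, and that for YmA-ind did not. Differences between classes were not tested. Of 8 genes with 2 or more sites, 3 had a single class, Sh3bp2, Sh3bp5 and Sh3glb2, and in each it was YmA-ind.

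Most sites at these genes lay inside the gene, as did most of all assigned sites. Inside lay 27 of 35 (77.1%, 59.9 to 89.6%), against 59.6% of all assigned sites and 61.2% of sites at genes of like span, a value within the interval. By gene, 15 of the 38 had an assigned site inside (39.5%, 24.0 to 56.6%), against 12.9% of all protein-coding genes and 17.6% at like span. Within 1 kb of an end of their gene lay 4 (11.4%, 3.20 to 26.7%), against 16.1%, a share within the interval. These 4 belonged to Sh2d2a, Sh2d3c, Sh3rf1 and Sh3tc1. Of 28 sites at genes with a listed start, 5 (17.9%, 6.06 to 36.9%) lay within 1 kb of one, against 16.8% of all such sites, and 3 of the 5 were those of Sh2b1. More than 50 kb outside their gene lay 5 (14.3%, 4.81 to 30.3%), against 5.63%, and 4 of these were at Sh3bgrl2. Runs of 3 or more sites with gaps under 12500 bp held 10 (28.6%, 14.6 to 46.3%), against 16.0%. These 10 were 3 sites each of Sh2b1, Sh3bgrl2 and Sh3tc1 and the site of Sh2d3c.

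**Figure D4:**
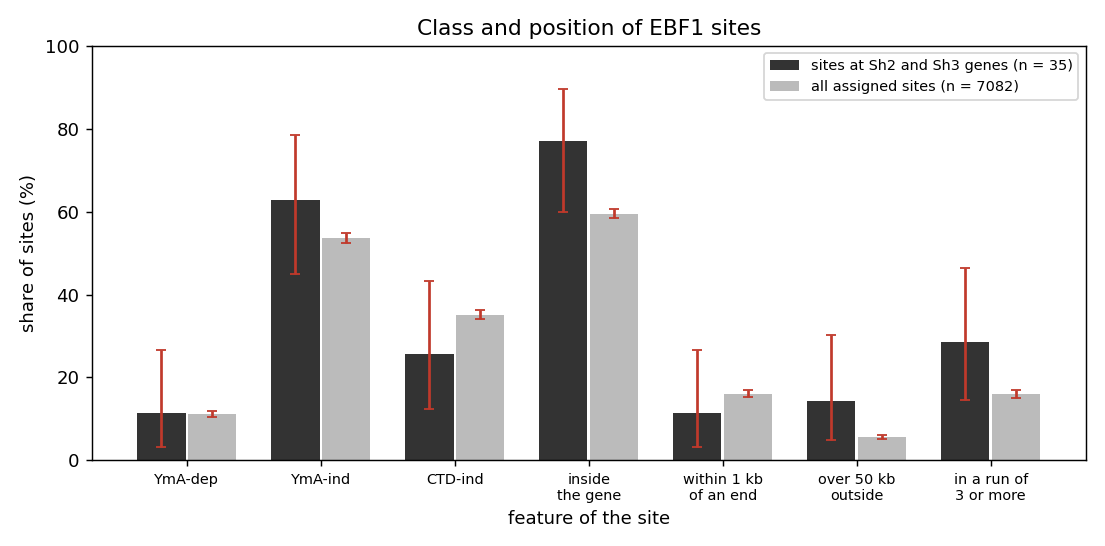
Share of sites (y axis, %) in each class and position (x axis) for the 35 sites at Sh2 and Sh3 genes (dark) and all 7082 assigned sites (light). Red lines are exact 95% binomial intervals. The share inside the gene was 77.1% against 59.6%, and the YmA-dep shares were 11.4% and 11.2%.

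Adaptor genes with other names and genes of known partners were set beside the family. These lists were written with results for some of their genes known (Blnk, Btk and Lyn among them), so they are not independent support. Of 28 other SH2 adaptor genes 12 had a site, where the shares of their span bins give 7.11. Shb, an adaptor of receptor tyrosine kinases, had 9 sites, of which 6 lay inside the gene. Bcar3, a relative of Sh2d3c, had 8 with 0 inside and only 1 within 10 kb, so its count rests on the 100 kb limit. Blnk, the adaptor downstream of Syk in B cells, had 4, Sla had 3 and Lcp2 had 2.

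Of 23 other SH3 adaptor genes 12 had a site, where the span bins give 6.52. Bin1, which encodes the BAR protein amphiphysin II, had 5, Sash1 had 3, and Baiap2, Cd2ap and Itsn1 had 2 each. Cd2ap is the closest relative of Sh3kbp1. Of 23 partner genes 10 had a site, where the span bins give 6.13. Nedd9, a Cas protein, had 6 sites, Abl1 and the ubiquitin ligase gene Cblb had 4 each, and Fyn and Vav1 had 3 each. The 13 partner genes without a site included Syk and Cbl. All 3 lists, like the Sh2 and Sh3 genes, were above the share at genes of like span. For the other SH2 adaptors (interval 24.5 to 62.8%) and the partners (23.2 to 65.5%), the interval included that share, 25.4% and 26.7%. For the other SH3 adaptors (30.6 to 73.2%) it did not include the 28.3% at like span. The differences between lists were not tested.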

How the data were processed

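Per the labels, chromatin of pro-B cells was crosslinked with formaldehyde, sonicated and precipitated with an antibody against EBF1. Bowtie2, SAMtools and deepTools were used by the authors on build GRCm38 (mm10), per the submitters' processing notes. The sources used here do not say how peaks were called, filtered, set to 300 bp and put into classes. The deposited file holds positions in bp and a class per site, with no score, so no test of strength was possible. Positions are printed 1-based.

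Genes came from a RefSeq table of GRCm38.p6. Of its 49997 genes, 345 on scaffolds listed under a chromosome were left out, as were chromosome Y, mitochondrial and unplaced genes, which kept 49209. The table has no strand or exons. Strand and starts came from the promoter table, so upstream and downstream are given only for genes in it, and exons were not separated from introns. Members, lists, bins and alternatives were chosen with earlier results of these data known. Where a share of genes of like span with at least a given number of sites is printed, that number was the gene's own count, already seen. Every member was named, and up to 5 genes with the most sites in other lists. Where Pacsin1 tied at 2 sites with the fifth gene of its list, and Nck2 with Lcp2, the alphabetical order decided. Shares have exact (Clopper-Pearson) 95% binomial intervals. The assignment was checked on simulated positions. Python 3.11.15, pandas 2.3.3, numpy 2.4.6, scipy 1.17.1 and matplotlib 3.10.9 were used.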

Additional observations from a re-analysis of the deposited data

How the results depend on the processing

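With 1 library and no test, no paired analysis was possible because the result comes from no test and no group has a second sample. Of 64 alternative values, 59 stayed within 1.5 times of a count or within the interval of a share, and 5 moved. The alternatives reuse most of the same sites and the intervals are wide, so this count says little about how firm the values are. With no limit and with the nearest gene end, the family's values equalled the main ones. The number of Sh2 and Sh3 genes with a site was 17 within 20 kb (30 sites), 18 with sites inside or within 10 kb counted for every such gene, 19 with no limit and with the nearest gene end, and 18 with 1 site per run (26 sites). Over all protein-coding genes, the share with a site moved from 19.6% to 17.9% within 20 kb, 22.3% with the 10 kb flank and 18.97% with 1 site per run. The share of the family's sites inside genes moved from 77.1% to 90% within 20 kb, where the distant sites of Sh3bgrl2 and Sh3gl3 no longer count. A shorter limit drops only sites outside genes, so this share could only rise. The share over all assigned sites within 20 kb is not given here. Windows with a motif went from 1 to 5 with the core form, which every full match also holds. Near an end lay 22.9% of the family's sites when near meant 2.5 kb, against 11.4% within 1 kb. Over all assigned sites these shares were 25.7% and 16.1%. Without the sites of Sh3bgrl2, chosen after the data were seen, 18 genes had a site and 87.1% of sites lay inside. The removed sites were all outside the gene, so here too the share inside could only rise. With 10 span bins, 9.52 genes would carry a site, against 9.25 with 4. At 35 sites, shares are known only within wide intervals.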
